A study of Homo sapiens with 6 samples.

Results

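The rows described here are transcript intervals of a PRO-seq count table that carry a sequencing-clone accession in place of a gene symbol. A row was a member when its name was AC, AL or AP followed by 6 digits, a point and a version number, and when its mean count over the 6 libraries was 50 or more. Of the 20333 rows of the table, 4174 had such a name and 3279 of these reached the minimum: 2245 AC, 828 AL and 206 AP names. The members were thus chosen by name and by measured mean count, and their levels are a description. At the edge of the rule, AC073254.1 had a mean of 50 counts and AC104590.1 and AC002553.1 had 50.2, while AC060780.2, AC007728.2 and AL391422.1 had 49.8 and stayed out.

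The libraries were made from T47D, an established luminal breast cancer cell line labelled estrogen receptor-positive and HER2-negative, kept in growth factor-complete medium. Cells were exposed for 5 h to DMSO, the vehicle, to 500 nM GDC0068, a catalytic inhibitor of the kinase AKT, or to 100 nM INY-05-040, an AKT degrader labelled Degrader. Each arm had 2 libraries, and the series describes 2 independent experiments. The doses differ because the submitters chose them for similar suppression of signalling below AKT, so a comparison of the agents is one of these doses at this time. All results come from 1 cell line, and p-values measure the spread between these libraries only. In bulk libraries fewer cells of a kind and less RNA per cell cannot be told apart.

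PRO-seq maps engaged RNA polymerase by letting it extend nascent RNA with biotinylated nucleotides, so it also registers short-lived transcripts that rarely accumulate as stable RNA. Ensembl-style annotation names a transcript that has no approved symbol after the genomic clone that holds it, and most such entries are long noncoding RNAs or pseudogenes. Many mammalian promoters fire in both directions, and the upstream antisense product is usually unstable. AKT, a kinase below PI3K, restrains FOXO transcription factors and supports the lipid-synthesis programme of SREBP.

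The names did not always mark uncharacterised transcripts. Of the 3279 members, 451 overlapped no gene of RefSeq (GRCh38.p14, whose table used here carries no strand). In 564 members (17.2%), the interval and a RefSeq long noncoding RNA each covered at least 80% of the other. The same held for 59 protein-coding genes, 48 pseudogenes and 33 transcribed pseudogenes. For 32 of these 59, the coding gene's symbol named no other row. As the overlap was taken without strand, the clone-named row need not stand for that gene in each case. AC118549.1 spanned the ZZZ3 locus, AC093012.1 that of IRAK4, AC091230.1 that of ULK3 and AC005747.1 that of GAS7, each with at least 98.9% cover in both directions. AC092143.1, which spans both MC1R and TUBB3, is 1 of the 27 whose coding gene also had a row. The members are therefore called clone-named intervals here.

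Library totals ran from 25371819 to 32192576 counts, and the members held 6.2% to 6.51% of each library. All 3279 members passed the filter on low counts, which left 19902 of 20333 rows for testing, and the lowest count of any member in any library was 26. The 11 markers of luminal breast epithelium were all rows of the table, with summed levels of 5619.8 to 6030.4 CPM (counts scaled to the library total) per library. TFF1, an estrogen-induced secreted peptide, was the lowest of them at 5.07 CPM, and GATA3 the highest at 1369.9 CPM. The coordinates carry no stated build, but 15540 of the 15572 named rows found in RefSeq by symbol overlapped their gene on GRCh38.p14. None of the 14 markers of basal epithelium, stroma, blood cells or endothelium names a row of the table used here.

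The sequences that follow show how close a member and its neighbour can start. They are RefSeq promoters (GRCh38.p14) of 300 bases, 250 before and 50 after the start of the named gene, written 5′ to 3′ on that gene's strand. In the first 4, both deposited start sites lie inside the window, and capitals mark each of the 2 start bases with 5 bases on either side. The first capital stretch is the clone-named start on the opposite strand, and the second is the gene's. They are INSIG1 (chr7:155297628-155297927, plus strand, with AC144652.1), HEXIM1 (chr17:45148225-45148524, plus strand, with AC142472.1), IMP3 (chr15:75640175-75640474, minus strand, with AC105020.6) and MAP7 (chr6:136550373-136550672, minus strand, with AL024508.1).
INSIG1: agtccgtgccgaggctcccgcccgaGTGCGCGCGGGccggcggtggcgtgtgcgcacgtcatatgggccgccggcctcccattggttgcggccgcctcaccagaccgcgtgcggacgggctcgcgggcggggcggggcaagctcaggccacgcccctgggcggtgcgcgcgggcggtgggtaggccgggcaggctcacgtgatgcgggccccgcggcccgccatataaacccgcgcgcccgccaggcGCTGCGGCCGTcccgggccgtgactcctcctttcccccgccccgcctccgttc
HEXIM1: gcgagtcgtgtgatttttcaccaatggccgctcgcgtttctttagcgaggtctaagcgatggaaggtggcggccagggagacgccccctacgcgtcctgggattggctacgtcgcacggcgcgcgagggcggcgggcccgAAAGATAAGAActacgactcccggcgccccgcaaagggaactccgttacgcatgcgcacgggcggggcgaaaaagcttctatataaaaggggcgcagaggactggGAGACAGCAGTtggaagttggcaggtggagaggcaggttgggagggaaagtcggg
IMP3: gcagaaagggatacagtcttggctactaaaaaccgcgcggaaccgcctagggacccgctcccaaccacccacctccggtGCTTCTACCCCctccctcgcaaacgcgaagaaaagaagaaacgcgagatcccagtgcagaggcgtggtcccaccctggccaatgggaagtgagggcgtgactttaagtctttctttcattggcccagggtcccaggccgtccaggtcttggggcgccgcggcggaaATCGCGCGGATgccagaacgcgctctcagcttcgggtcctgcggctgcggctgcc
MAP7: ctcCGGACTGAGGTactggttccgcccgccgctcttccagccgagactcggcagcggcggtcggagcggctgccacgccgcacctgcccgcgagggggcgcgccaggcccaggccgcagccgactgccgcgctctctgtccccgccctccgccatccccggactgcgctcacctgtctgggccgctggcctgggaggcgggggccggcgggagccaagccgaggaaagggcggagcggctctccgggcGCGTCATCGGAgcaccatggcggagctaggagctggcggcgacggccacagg

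HSPA8 (chr11:123062087-123062386, minus strand, with AP000926.2) and YPEL3 (chr16:30096164-30096463, minus strand, with AC012645.1) are shown because gene and interval changed unequally there. Their clone-named starts lie outside the window. Capitals mark matches on either strand to the heat shock element (GAA, TTC and GAA in a row with NN between them) in HSPA8, where 2 were found, and to the FOXO core GTAAACA in YPEL3, where 1 was found. Such matches occur in 0.49% and 3.42% of the 35116 RefSeq promoters of the same length. A match of letters is a description and not a bound site.
HSPA8: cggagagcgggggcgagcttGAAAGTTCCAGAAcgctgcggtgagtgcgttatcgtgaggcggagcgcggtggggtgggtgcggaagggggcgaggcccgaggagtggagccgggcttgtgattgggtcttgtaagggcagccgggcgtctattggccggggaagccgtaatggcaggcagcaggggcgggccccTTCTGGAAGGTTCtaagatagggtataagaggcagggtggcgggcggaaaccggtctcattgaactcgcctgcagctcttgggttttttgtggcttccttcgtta
YPEL3: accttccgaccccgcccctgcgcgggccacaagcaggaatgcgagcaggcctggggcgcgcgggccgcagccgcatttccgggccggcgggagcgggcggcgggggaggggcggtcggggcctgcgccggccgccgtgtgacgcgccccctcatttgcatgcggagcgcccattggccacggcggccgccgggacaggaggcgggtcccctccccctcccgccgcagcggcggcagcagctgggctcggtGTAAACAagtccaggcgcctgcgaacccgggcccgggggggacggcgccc

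Of the 1078 divergent pairs described next, 865 had a partner with a RefSeq promoter sequence. It held the partner's start in 568 pairs and both starts in 328. Those 328 promoters had a median GC content of 69%, against 58.7% over all promoters, and a median observed-over-expected CpG of 0.92 against 0.58. The set of all promoters was not limited to genes transcribed in these cells, and no set matched for transcription was compared. The GC box GGGCGG was found in 79.3% of them and in 45% of all promoters, and the TATA box TATAAA in 2.44% against 11.5%. The CCAAT box (letters CCAAT) stood at 29% against 34.6%, and the E-box CACGTG at 11% against 7.26%. The FOXO core was present in 2.13% and the heat shock element in 0.305%. All motifs were searched on both strands and may overlap each other.

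Each interval was then related to its nearest named row, meaning the closest row whose name is not a clone accession. The most common position was divergent: 1078 members (32.9%) lay on the opposite strand with start sites within 1000 bp of each other. A further 622 (19%) overlapped a named row on the opposite strand, 471 (14.4%) overlapped one on the same strand, and 341 (10.4%) lay within 10000 bp downstream of one on the same strand. Another 195 (5.95%) lay on the opposite strand without overlap, 94 (2.87%) lay upstream on the same strand, and 478 (14.6%) had no named row within 10000 bp. Among named rows with a mean of 50 or more counts, put through the same search, 18.8% were divergent, 8.56% overlapped on the opposite strand and 33% were far.

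**Figure D1:**
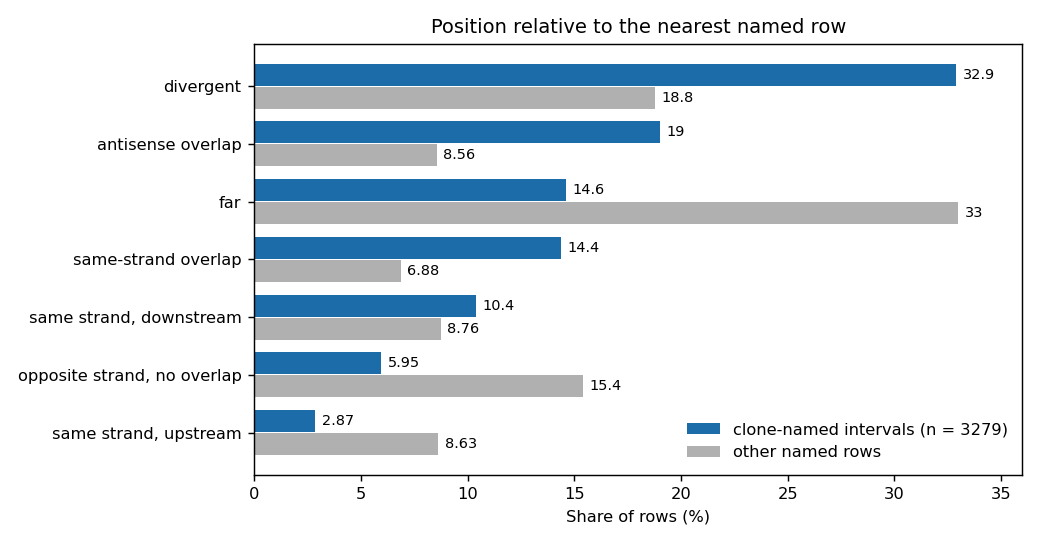
Horizontal bars give the share of rows (%) in each position relative to the nearest named row, for the 3279 clone-named intervals and for named rows with a mean of 50 or more counts. Divergent positions took 32.9% of the clone-named intervals and 18.8% of the named rows, and far positions 14.6% and 33%.

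Divergent starts were close together. The median distance between the 2 start sites was 217 bp, 716 pairs lay within 300 bp and 147 within 100 bp. In 851 pairs the intervals pointed away from each other without overlap, and in 227 the member ran past the start of its partner. The nearest rows were 2775 different rows, of which 410 served more than 1 member, and 1 served 10 members. Overlap was frequent: 1485 members overlapped some row on either strand, and 621 overlapped one on the same strand, where reads of the pair cannot be told apart.

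Members were short and modestly covered. Their median length was 3278 bp (83 to 882307 bp), against 13766 bp over all rows, and their median mean count was 258, against 687. Members had to reach 50 counts and the other rows did not. The 14750 rows that are not clone-named and reach the same minimum had medians of 22258 bp and 1054.0 counts. Per kb of interval the medians were 2.51 CPM per kb for members and 1.7 for those rows, a description since the rule used the counts. The highest counts belonged to long intervals over named genes. AL138752.2, a 480159 bp interval over SHB and its neighbours, had a mean of 14896.7 counts, AL713999.1 over TRIM46 and MUC1 had 13620.8, and AC012531.3 across the HOXC cluster of developmental regulators had 12085.3. AP000662.1, which contains MIR130A, had 13344.5.

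Per kb, small nuclear RNA copies led. AC245014.3, a 347 bp interval overlapping RNVU1-14, a variant U1 gene, reached 406 CPM per kb. Next came 5 intervals of 191 bp each inside CCDC200, AC024051.1, AC024051.2, AC024051.3, AC024051.8 and AC024051.10, at 313 to 315 CPM per kb. Their mean counts lay between 1717.0 and 1731.0, and they sit in the array that holds RNU2-1, the U2 small nuclear RNA. Reads of such near-identical copies could have been split among them by the authors' counting, so the single values are uncertain. In all 6 of these intervals the CPM of replicate 1 exceeded that of replicate 2 in every arm, and none was called in any comparison by edgeR without the block. With the block AC245014.3 was called between the agents (adjusted p = 0.00733).

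The Degrader comparison asks which intervals gained or lost polymerase when AKT was degraded. Under Degrader 330 of 3279 members were called against DMSO (10.1%; adjusted p under 0.05), against 15.3% of all rows tested. Of these calls 218 were higher and 112 lower, while over all rows 7.39% were called higher and 7.88% lower. The share of members called was thus below the background, and the split leaned to higher. The median log2 fold change was 0.41 among the members called higher and -0.45 among those called lower. Changes of at least 1.5-fold were found in 84 of the called members and of at least 2-fold in 10. Over all 19902 rows tested, 338 and 47 of the 3039 called rows reached these sizes. Of the 84 and 10 members, 50 and 9 had means of 50 to 200 counts. Over all 3279 members the median was 0.035, and over all rows -0.001.

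The count depended on single libraries. It fell to 90 without DMSO replicate 1, to 101 without Degrader replicate 2, to 184 without Degrader replicate 1 and to 186 without DMSO replicate 2. With the replicate number as a block it was 699 (438 higher, 261 lower), beside 30.7% of all rows (15.1% higher, 15.7% lower), and all 330 calls were among them with the same sign. Called members that were higher made up 61.3% to 73.3% of the calls in these fits, against 66.1% in the first.

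The share called differed with coverage. Among members with a mean of 50 to 200 counts, 4.77% were called, beside 5.25% of rows of that coverage that are not clone-named. At 200 to 1000 counts the shares were 10.1% and 12.9%, and at 1000 or more 25.8% and 24.5%. The lean to higher was present in each tier: 41 of 64, 90 of 151 and 87 of 115 called members were higher, beside 38 of 88, 317 of 698 and 873 of 1873 of the other rows. Other noncoding names also leaned to higher. Of the LINC-named rows called under Degrader 41 of 48 were higher, of the antisense-named rows 50 of 73, and of the remaining named rows 1145 of 2557. These differences in split were not tested. By length, 822 members of up to 1304 bp, the lower quartile, had 12 higher and 25 lower (4.50% called). The 820 over 13511 bp, the upper quartile, had 120 higher and 21 lower (17.2% called). Over all rows 7.39% were called higher and 7.88% lower. Calls of other rows were not counted at these lengths. Named rows of up to 3278 bp had a median of -0.06 under Degrader with 40.3% above 0, and longer ones had 49.2% above 0. Without the 140 members that equal a RefSeq coding gene or pseudogene, 208 members were higher and 105 lower, a setting chosen after the data were seen.

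**Figure D2:**
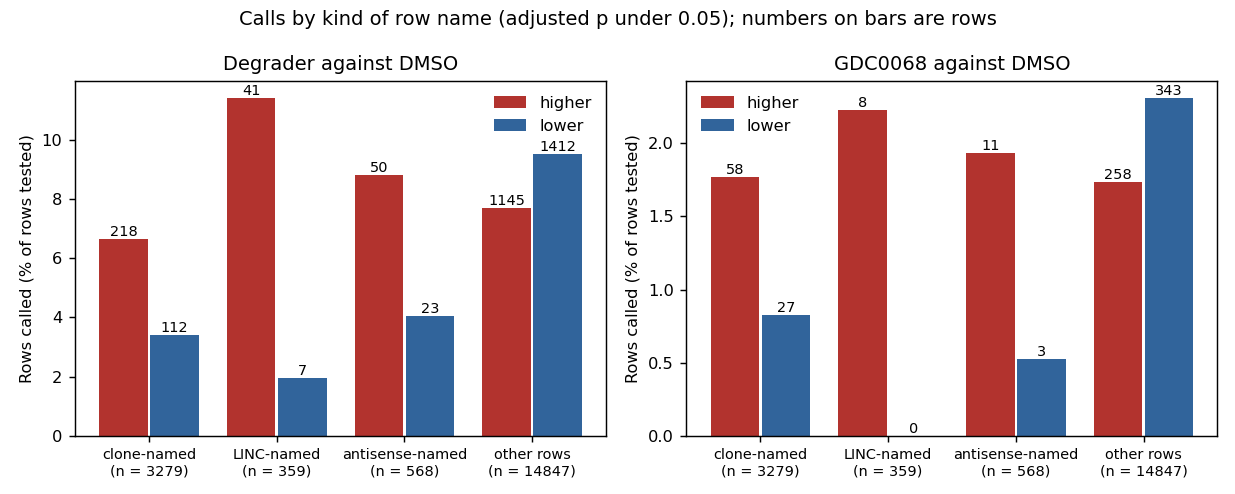
Bars give the rows called higher or lower against DMSO (adjusted p under 0.05) as a percentage of rows tested, by kind of row name, with the number of rows on each bar. Under Degrader 218 clone-named intervals were higher and 112 lower, while the remaining named rows had 1145 higher and 1412 lower.

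AC114778.2 (ENSG00000288582) had the lowest adjusted p of the widest rises. It is a 46017 bp interval downstream of NABP1, which encodes a single-stranded DNA-binding protein of genome maintenance, at chr2:191692578-191738594. The DMSO libraries gave 12.6 and 13.3 CPM, the GDC0068 libraries 25 and 23.2, and the Degrader libraries 26.4 and 28.2. Both treated arms lay wholly above DMSO. The log2 fold change was 1.08 (SE 0.0905, adjusted p = 0.0001) under Degrader and 0.90 (SE 0.0913, adjusted p = 0.00158) under GDC0068, by edgeR's quasi-likelihood test with Benjamini-Hochberg adjustment over all rows, and both calls held without any 1 library. NABP1 itself, 6683 bp away, had 22.5 and 24 CPM in DMSO and 25.8 and 26 under Degrader (log2 fold change 0.15, adjusted p = 0.22).

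The other 7 of the 8 widest rises under Degrader were low in counts, with means of 54.2 to 154. AL031432.2, 18647 bp from the RSRP1 row and inside the RefSeq gene of that name, had 3.3 and 3.2 CPM in DMSO, 6.25 and 6.51 under GDC0068 and 5.68 and 7.34 under Degrader (log2 fold change 1.00, adjusted p = 0.00252). AC046185.3, divergent from LIMD2, had 3.39 and 2.83 CPM in DMSO, 3.58 and 3.48 under GDC0068 and 6.48 and 6.66 under Degrader (1.07, adjusted p = 0.00129). Both calls held in all 6 fits that leave out 1 library. The remaining 5 had log2 fold changes of 1.00 to 1.19, and each lost its call in at least 3 of the 6 fits.

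Among these 5, AL392083.1, a far interval 157645 bp from WDR37, moved most with 1 library. It had 1.64 and 3.53 CPM under Degrader against 1.09 and 1.18 in DMSO, with a log2 fold change of 1.19 that became 0.52 without Degrader replicate 2. AC005495.1 near ABCA5 went from 1.00 to 0.59 without the same library. AC025822.2 (1.09), AC018926.1 (1.07) and AP003721.4 (1.01) kept at least 0.76, with adjusted p up to 0.16 in those fits.

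The deepest fall was that of AL032819.1 (ENSG00000260132), at chr16:1408394-1412248, whose nearest named row is C16orf91 and whose span overlaps the RefSeq gene UNKL. It had 5.54 and 4.74 CPM in DMSO, 3.58 and 2.33 under GDC0068 and 2.26 and 1.34 under Degrader. All 4 treated values lay below both DMSO values, and the log2 fold change under Degrader was -1.52 (SE 0.255, adjusted p = 0.00286), a 2.86-fold difference. C16orf91 stood at 18.2 and 15.1 CPM in DMSO and 18.1 and 16.1 under Degrader.

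AL136131.3 (ENSG00000272114) starts 686 bp inside VEGFA, the vascular endothelial growth factor gene, and runs the other way past its start. Its CPM values were 5.91 and 4.96 in DMSO, 4.29 and 4.27 under GDC0068 and 2.65 and 2.47 under Degrader (log2 fold change -1.09, adjusted p = 0.00174). VEGFA fell too, from 71.9 and 68 CPM to 42 and 41 under Degrader (-0.75, adjusted p = 8.29e-05). AP002761.4 lies 2128 bp downstream of P2RY2, a receptor for extracellular nucleotides. The interval had 24.2 and 20.6 CPM in DMSO, 16.4 and 14.5 under GDC0068 and 12.8 and 10.6 under Degrader (-0.94, adjusted p = 0.00071). P2RY2 had 36 and 35.8 CPM in DMSO and 21.2 and 19.4 under Degrader (-0.83, adjusted p = 0.000144). The Degrader calls of AL032819.1, AL136131.3 and AP002761.4 held without any 1 library.

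The other 5 of the 8 deepest falls, AL024508.1 at MAP7, AC132872.4 in CSNK1D, AC116351.2 near NKD2, AC129492.7 over BORCS6 and AC012676.4 in DNAJA3, had log2 fold changes of -0.96 to -0.78. Each of these calls was lost in at least 2 of the 6 fits that leave out 1 library. NKD2, which encodes an inhibitor of Wnt signalling, was itself lower under Degrader (-1.04, adjusted p = 0.00295). DNAJA3, which holds AC012676.4 on the same strand, was lower too (-0.24, adjusted p = 0.00995), so the interval's reads may be those of the gene. MAP7, CSNK1D and BORCS6 differed from DMSO by -0.04, -0.05 and 0.29, with adjusted p of 0.657, 0.525 and 0.293.

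**Figure D3:**
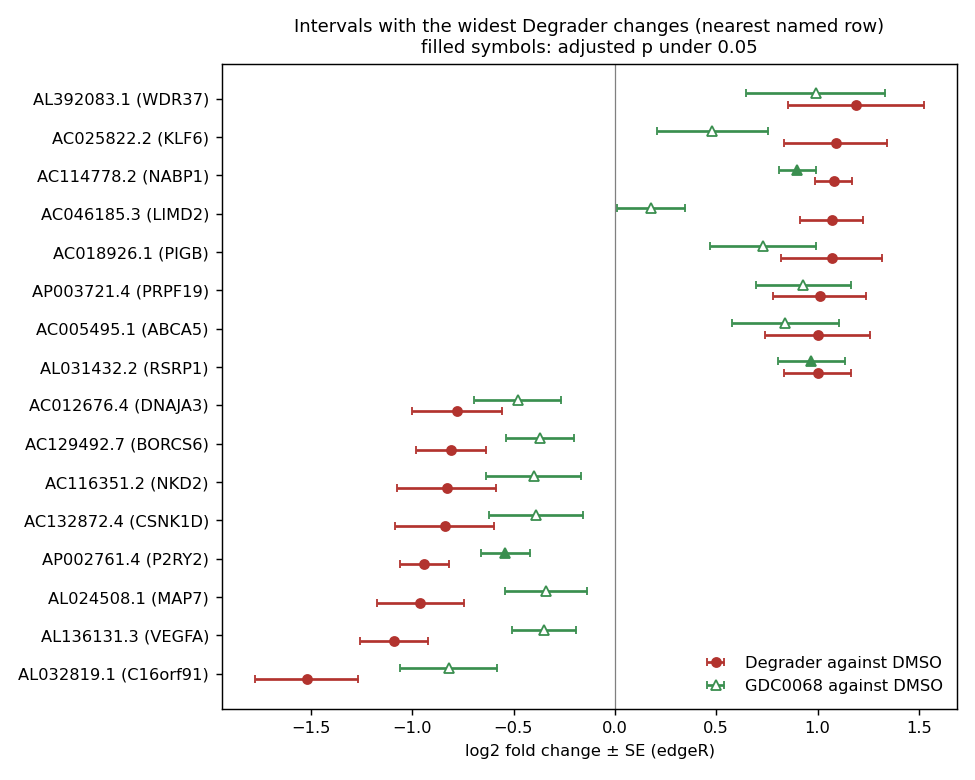
Points give log2 fold changes with their SE for the 8 highest and 8 lowest clone-named intervals under Degrader, against DMSO, with the nearest named row in brackets. Circles are Degrader, triangles GDC0068, and filled symbols have an adjusted p under 0.05. AL032819.1 is lowest at -1.52, and AC114778.2 was called under both agents at 1.08 and 0.90.

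Some well-covered members were called at smaller changes. AC034102.2 overlaps PA2G4, which encodes a protein that binds the receptor ERBB3, and in RefSeq also ERBB3 itself. It had 127 and 131 CPM in DMSO, 148 and 152 under GDC0068 and 174 and 181 under Degrader. Its log2 fold change was 0.46 (adjusted p = 0.000251) under Degrader and 0.22 under GDC0068 (adjusted p = 0.0345). PA2G4, on the same strand, rose by 0.29 (adjusted p = 0.00296), and 5004 bp of the interval are shared with it. The interval overlaps 2 rows on its own strand, PA2G4 and the end of the ERBB3 row. Its reads may therefore be those of these genes. AP001628.1, 12837 bp from WDR4, fell from 119 and 112 CPM to 79.8 and 76.8 under Degrader (-0.56, adjusted p = 0.000134) and to 84.4 and 85.9 under GDC0068 (-0.44, adjusted p = 0.00281). WDR4, a subunit of a tRNA methyltransferase, fell by 0.57 and 0.42. The GDC0068 call of AC034102.2 was lost without any 1 library (adjusted p 0.0559 to 0.236), and the other 3 member calls were kept in each such fit.

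The GDC0068 comparison asks the same of catalytic inhibition. Under GDC0068 85 members were called against DMSO (2.59%), against 3.58% of all rows. Of these 58 were higher and 27 lower, while 1.70% of all rows were higher and 1.88% lower. The median change among the called members was 0.43 for those higher and -0.47 for those lower. Of them 20 reached 1.5-fold, beside 67 of the 712 rows called over the whole table, and 14 of the 20 had means of 50 to 200 counts. Over all members the median was 0.062. The fit with the replicate block called 460 members (353 higher, 107 lower), beside 17.8% of all rows (8.87% higher, 8.91% lower), and held all 85 with the same sign. Leaving out DMSO replicate 1 reduced it to 3, GDC0068 replicate 2 to 12, DMSO replicate 2 to 14 and GDC0068 replicate 1 to 29. Both comparisons use the same DMSO libraries, so a library of that arm enters both.

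The widest rises under GDC0068 were AL031432.2 (0.97), AC114778.2 (0.90), AL355102.3 near ATG2B (0.90), AP002373.2 near REXO2 (0.82) and AL928711.1 at TMEM50A (0.80). AL928711.1 starts 90 bp from TMEM50A and had 3.17 and 3.6 CPM in DMSO, 5.7 and 6.08 under GDC0068, and under Degrader it had 4.94 and 6.45. Like AL031432.2, it overlaps the RefSeq gene RSRP1. The deepest falls were AC089999.2 in DDX54, at 1.73 and 2.5 CPM against 4.17 and 4.37 in DMSO, AC131009.3 in PUS1 (-0.87), AC022211.2 in JPT1 (-0.87), AC023855.2 in HDAC5 (-0.74) and AC008750.5 in ETFB (-0.74). All 5 lie inside or over a named gene, 4 of them on the same strand. Of these 10, AC114778.2 alone was called in every fit that leaves out 1 library, and the highest adjusted p of the others in those fits ranged from 0.0602 to 0.194.

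The agents were compared directly at these unequal doses. Between Degrader and GDC0068 6 members were called (0.183%), against 0.266% of all rows, with 3 higher and 3 lower under Degrader (all rows 0.116% and 0.151%). AC112777.1, a 1566 bp interval within PDE3A, a phosphodiesterase gene that names no row of the table, had 254 and 267 CPM under GDC0068 and 160 and 134 under Degrader, with 248 and 190 in DMSO (log2 fold change -0.83, adjusted p = 0.0109). AC105020.6, whose start lies 166 bp from that of IMP3, a component of the U3 small nucleolar ribonucleoprotein, had 22.9 and 22.9 against 16 and 15.2 CPM (-0.55, adjusted p = 0.0311). AP006216.1 at ZPR1 had 35 and 30.3 against 23.5 and 21.5 CPM (-0.53, adjusted p = 0.0402).

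Higher under Degrader than under GDC0068 were AC046185.3 (0.89, adjusted p = 0.041), AC024560.4 (0.49, adjusted p = 0.0396) and AC015987.1 (0.48, adjusted p = 0.0476). AC015987.1, a 159407 bp interval that overlaps MTPN on the opposite strand, had 26.4 and 24.1 CPM under GDC0068 and 37.1 and 33.1 under Degrader, while MTPN had 38.5 and 38.1 against 36.7 and 38.9. Of the 6 calls none was kept in all fits that leave out 1 library, and 4 were kept in none of them. AC112777.1 was lost without Degrader replicate 2 or GDC0068 replicate 1 (adjusted p up to 0.103) and with a robust estimate of the spread (0.151). With the block 277 members were called (100 higher, 177 lower), beside 10.4% of all rows (5.03% higher, 5.35% lower).

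Divergent members and antisense overlaps had the highest class medians under GDC0068. In divergent members the median log2 fold change was 0.00 under Degrader against DMSO, 0.10 under GDC0068 against DMSO and -0.10 for Degrader against GDC0068. Values above 0 were found in 71.1% of divergent members under GDC0068 and in 28.5% between the agents. Antisense overlaps were close under GDC0068, with a median of 0.08 and 65.3% above 0, but had 0.07 under Degrader and 0.00 between the agents. In all members that are not divergent the 3 medians were 0.05, 0.04 and 0.01, and in the nearest named rows of the divergent members all 3 lay within 0.01 of 0. Divergent members took 1.66% and 1.63% of counts in DMSO, 1.83% and 1.72% under GDC0068 and 1.66% and 1.68% under Degrader. GDC0068 replicate 1 stood highest, at a median of 0.145 log2 units over the DMSO mean, with GDC0068 replicate 2 at 0.058.

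Short named rows had shifts of the same sign in these 2 comparisons. Named rows no longer than the members' median of 3278 bp had medians of 0.05 under GDC0068 and -0.10 between the agents. Under Degrader their median was -0.06 with 40.3% above 0, against 0.00 and 50.6% for divergent members. Among their libraries GDC0068 replicate 1 again stood highest, at 0.091 against 0.004 in replicate 2. The part of length or of that library in the shift of divergent members was not tested. By call, 18 of 1078 divergent members were higher and 2 lower under GDC0068, beside 1.70% and 1.88% of all rows. With the block 146 were higher and 8 lower, beside 8.87% and 8.91%. Between the agents 1 was higher and 1 lower, beside 0.116% and 0.151% of all rows, and with the block 9 and 112, beside 5.03% and 5.35%. Under Degrader 44 were higher and 26 lower, 6.49% of 1078, beside 15.3% of all rows.

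In the other classes the shares called under Degrader were as follows. Far members were called in 14.4%, those on the opposite strand without overlap in 12.3%, antisense overlaps in 12.1%, same-strand overlaps in 10.4% and same-strand downstream members in 9.97%. Far members had 51 higher and 18 lower, antisense overlaps 50 and 25, downstream members 25 and 9, and same-strand overlaps 29 and 20. Upstream members, 94 in all, had 4 higher and 5 lower. Over all rows 15.3% were called, 7.39% higher and 7.88% lower. Named rows with a mean of 50 or more counts and a tested neighbour were called as follows. Far rows had 854 of 4801, opposite-strand rows without overlap 421 of 2249 and antisense overlaps 246 of 1217. Same-strand overlaps had 206 of 994, downstream rows 213 of 1286 and upstream rows 226 of 1271. These shares were not tested against each other.

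Members and their neighbours were then set side by side. Across pairs, the Pearson correlation of the log2 fold changes under Degrader was 0.68 for 470 same-strand overlaps and 0.57 for 341 downstream members. It was 0.28 for 1078 divergent pairs, 0.24 for 467 far ones and 0.04 for 617 antisense overlaps. Pairs share libraries, same-strand overlaps also share reads, and intervals are not independent replicates, so these values are descriptions. Among named rows in the same positions the values were 0.53 (same-strand overlap), 0.32 (downstream), 0.26 (divergent), 0.10 (far) and 0.10 (antisense overlap).

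**Figure D4:**
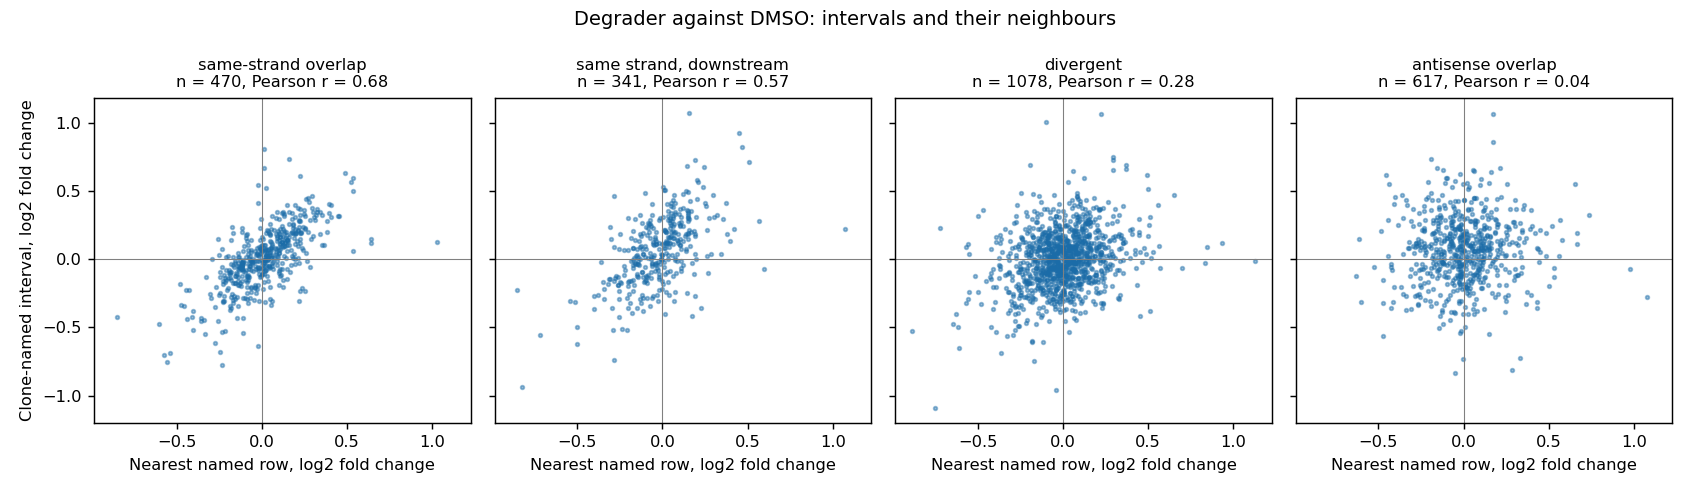
Each point is a clone-named interval, with its log2 fold change under Degrader against DMSO on the vertical axis and that of its nearest named row on the horizontal axis, in 4 positions. The cloud follows the diagonal for same-strand overlaps (r = 0.68) and is round for antisense overlaps (r = 0.04).

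Of the 330 members called under Degrader, 124 had a nearest named row that was called too. The pair had the same sign in 111 of these and opposite signs in 13, and in 206 the named row was not called. Among rows that are not clone-named, at the same count minimum, 588 of 2621 called rows had a called neighbour, 477 of them with the same sign. The difference between these shares was not tested. All 31 same-strand overlaps and all 15 downstream members with both rows called had the same sign, beside 56 of 58 and 54 of 58 of the other rows. Among antisense overlaps 11 had the same sign and 6 opposite signs, beside 43 and 11. Under GDC0068 16 of 85 called members had a called neighbour, 15 of them with the same sign, beside 50 of 611 other rows, 48 with the same sign.

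A direct test asked whether an interval and its nearest named row changed unequally, on the log2 ratio of their CPM values. Under Degrader 86 of 3262 pairs were called (60 with the interval higher, 26 lower), against 4.34% of all pairs tested (2.32% higher, 2.02% lower). Rows that are not clone-named were taken at the same count minimum. Of these, 81 of 1217 antisense overlaps, 93 of 2773 divergent pairs and 13 of 994 same-strand overlaps were called. The members' shares were not tested against these. Of the 86 called member pairs, 37 were among 617 antisense overlaps, 24 among 1078 divergent pairs and 0 among 470 same-strand overlaps. The count was 203 with the block, beside 10.7% of all pairs (5.61% higher, 5.07% lower), and 0 when any 1 library of DMSO or Degrader was left out. Under GDC0068 the count was 0, against 0.0101% of all pairs, with 478 at an unadjusted p under 0.05 and 12 calls with the block (0.837% of all pairs, 0.436% higher and 0.401% lower). Between the agents it was 0, with 0 of all pairs called, 350 at an unadjusted p under 0.05 and 0 calls with the block (0.0964% of all pairs, 0.0355% higher and 0.0609% lower).

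HSPA8 encodes a constitutive heat shock chaperone. The gene had 242 and 265 CPM in DMSO, 168 and 163 under GDC0068 and 152 and 155 under Degrader, a fall by 0.72 on the log2 scale (adjusted p = 5.73e-05). AP000926.2, which starts 525 bp away on the other strand, had 80.6 and 77.9 CPM in DMSO, 89 and 92.2 under GDC0068 and 92.9 and 93.5 under Degrader, a rise of 0.23 (adjusted p = 0.00974). The treated values lay below DMSO for the gene and above it for the interval. The log2 ratio rose by 0.95 (adjusted p = 0.0155, limma). The rise of the interval was not called without DMSO replicate 2 or Degrader replicate 2 (adjusted p up to 0.0906).

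YPEL3, a gene linked to growth arrest, showed the reverse. It had 12.2 and 15.1 CPM in DMSO, 22 and 19.9 under GDC0068 and 28.6 and 30.7 under Degrader, a log2 fold change of 1.12 (adjusted p = 0.000169). AC012645.1, 240 bp away, stayed between 11.2 and 13 CPM in all 6 libraries, and its log2 fold change was -0.01 (SE 0.107). The log2 ratio fell by 1.13 (adjusted p = 0.0196). TP53INP1, a stress-response gene, and AC087752.3, a pair named after its values were seen, gave the same picture. The gene went from 42.2 and 43.1 CPM to 77.3 and 74.9 under Degrader (0.84, adjusted p = 2.66e-05), while the interval had 23.9 and 21.1 in DMSO and 22.4 and 21.7 under Degrader (-0.03, adjusted p = 0.876). AC087752.3 also overlaps the RefSeq gene NDUFAF6, so its reads may belong to that gene.

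At H3-3A and HEXIM1 the interval rose. AL512343.2 starts 627 bp from the start of the H3-3A row, a gene for the replacement histone H3.3. In RefSeq H3-3A overlaps the interval, and its promoter there (chr1:226061581-226061880) holds neither deposited start. AL512343.2 had 38.1 and 38.2 CPM in DMSO, 53.6 and 51 under GDC0068 and 58.5 and 61 under Degrader. Its log2 fold change was 0.65 (SE 0.0581, adjusted p = 0.000107) under Degrader and 0.46 (adjusted p = 0.00409) under GDC0068. H3-3A had 40.2 and 38.1 CPM in DMSO and 41.3 and 40.2 under Degrader (0.06, adjusted p = 0.581). The Degrader call of the interval was kept without any 1 library, and its GDC0068 call was lost without DMSO replicate 1 (adjusted p = 0.0527).

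AC142472.1 starts 105 bp from HEXIM1, which encodes an inhibitor of the elongation kinase P-TEFb, and was named after its values were seen. The interval had 82.8 and 95.2 CPM in DMSO, 116 and 143 under GDC0068 and 129 and 159 under Degrader (0.70, adjusted p = 0.00194). Replicate 2 stood above replicate 1 in each arm, yet the Degrader values lay above both DMSO values. HEXIM1 had 133 and 132 CPM in DMSO and 116 and 116 under Degrader (-0.19, adjusted p = 0.0172). With a robust estimate of the spread the interval's adjusted p was 0.0687.

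Unequal changes also occurred where an interval overlaps a gene. AC023855.2 (ENSG00000267638) lies wholly inside HDAC5, a class IIa histone deacetylase gene, on the other strand. It had 15.3 and 16.2 CPM in DMSO, 8.42 and 10.3 under GDC0068 and 9.37 and 9.64 under Degrader (-0.73, adjusted p = 0.00206). HDAC5 rose from 99.8 and 103 CPM to 126 and 130 under Degrader (0.33, adjusted p = 0.00128). AL133227.1, which shares 24836 bp with ELMO2, an adaptor in cell engulfment and migration, had 27.6 and 28.9 CPM in DMSO, 38 and 39.1 under GDC0068 and 42.4 and 46.4 under Degrader (0.65, adjusted p = 0.000263). ELMO2 had 63.9 and 62.5 in DMSO and 60.6 and 55.4 under Degrader (-0.12, adjusted p = 0.179), and with the block it was called lower under Degrader (adjusted p = 0.0492). AL034550.1, 11172 bp from the NOL4L row and inside the RefSeq gene of that name, rose by 0.67 (adjusted p = 0.000931), while NOL4L changed by -0.39 (adjusted p = 0.00214). In these 3 pairs the log2 ratio of interval to gene changed by -1.06, 0.78 and 1.06 under Degrader (adjusted p = 0.0196, 0.0234 and 0.0196, limma). The Degrader calls of the 3 intervals by themselves were kept in all 6 fits that leave out 1 library. Their ratio calls were lost without any 1 library of DMSO or Degrader.

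**Figure D5:**
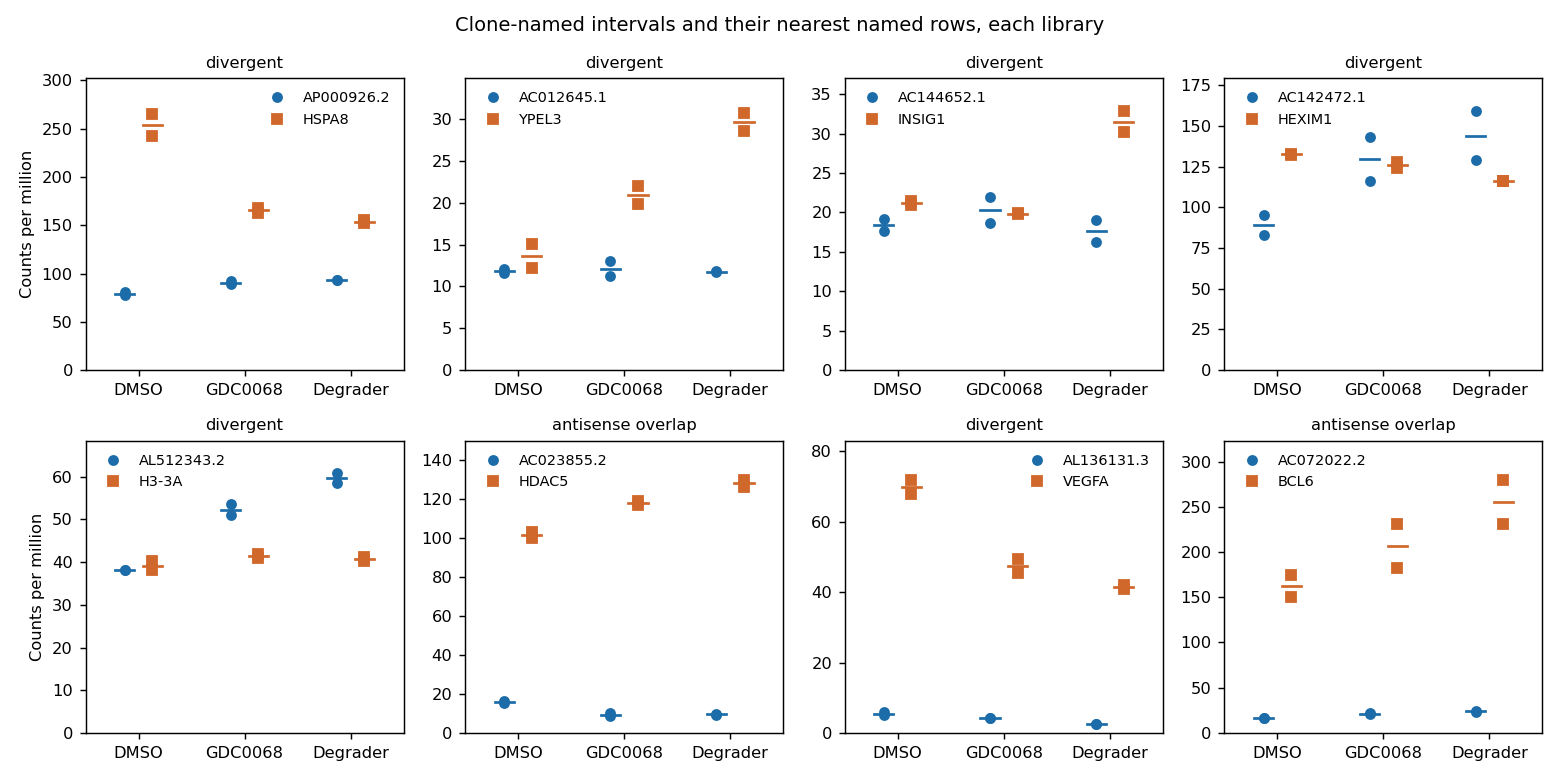
CPM of 8 clone-named intervals (circles) and their nearest named rows (squares) in each library, with a bar at the mean of each arm, by treatment. The HSPA8 squares are lower in both treated arms while the AP000926.2 circles are not, YPEL3 and INSIG1 are highest under Degrader while the arms of their intervals AC012645.1 and AC144652.1 overlap, and VEGFA and AL136131.3 are both lower.

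Intervals beside genes of named pathways were counted from lists of general knowledge, chosen with earlier results of these data known. The counts are therefore descriptions. Among the 24 FOXO target genes present in the table, 6 members had one as nearest row, and 3 of these were higher under Degrader and 0 lower, with a median of 0.45 over the 6. Under GDC0068 1 was higher, with a median of 0.38. DESeq2 called 1 of the 6 under each agent, and the block 5 under Degrader and 2 under GDC0068. Over all rows edgeR called 15.3% under Degrader and 3.58% under GDC0068, and with the block 30.7% and 17.8%. A difference from these shares was not tested. The 3 called under Degrader were AC072022.2 at BCL6, AC008115.3 in CDKN1B and AC025822.2, which lies 266056 bp from KLF6. AC072022.2 overlaps the start of BCL6, a transcriptional repressor, on the other strand, and had 16.3 and 16.1 CPM in DMSO, 20.5 and 21.5 under GDC0068 and 23 and 24.5 under Degrader. Its log2 fold change was 0.55 (adjusted p = 0.00199) under Degrader and 0.38 (adjusted p = 0.0397) under GDC0068, and BCL6 rose by 0.65 under Degrader (adjusted p = 0.00316). The GDC0068 call was lost without any 1 library.

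AC008115.3 lies inside CDKN1B, which encodes the cell-cycle inhibitor p27, on the same strand, so its reads may be those of the gene. The interval had 2.77 and 2.68 CPM in DMSO and 4.63 and 3.84 under Degrader (0.63, adjusted p = 0.0448), and CDKN1B rose by 0.49. The interval's call was lost without any 1 of the 4 libraries compared (adjusted p up to 0.225) and with DESeq2 (0.106). The 3 FOXO-list members that were not called, AC025164.2 at BTG1, AC008115.1 near CDKN1B and AL162274.1 in BNIP3, had log2 fold changes of 0.30, 0.26 and 0.36 under Degrader.

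Of 8 members beside SREBP targets, 0 were called under either agent by edgeR without the block or by DESeq2, and 1 under each had an unadjusted p under 0.05. With the block 1 was called under GDC0068 and 0 under Degrader. Between the agents 0 of the 8 were called by these fits, 3 had an unadjusted p under 0.05 and 2 were called with the block. Their medians were 0.02 under Degrader, -0.06 under GDC0068 and 0.10 between the agents. INSIG1, which encodes an endoplasmic reticulum protein that retains SREBP, had 21 and 21.5 CPM in DMSO, 19.9 and 19.8 under GDC0068 and 30.2 and 32.8 under Degrader (0.57, adjusted p = 0.0013). AC144652.1, which starts 222 bp away and was named after its values were seen, had 19.2 and 17.7, 22 and 18.7, and 16.3 and 19.1 CPM in the same order, with overlapping arms. Its log2 fold change was -0.06 (SE 0.112) under Degrader and 0.13 (SE 0.112) under GDC0068. The log2 ratio of interval to gene fell by 0.63 under Degrader (adjusted p = 0.0361).

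Members beside estrogen receptor targets numbered 5, beside luminal regulators 3 and beside immediate-early genes 3. By edgeR without the block and by DESeq2 0 of these 11 were called in any of the 3 comparisons. With the block 1 of the 5 and 1 of the luminal 3 were called under Degrader, and 0 of the 11 in the other comparisons. At an unadjusted p under 0.05 under Degrader stood 1 of the 5, 2 of the luminal 3 and 0 of the immediate-early 3. Of the 5, 1 stood there under GDC0068 and 2 between the agents, and of the other 2 lists 0 in either. Their medians under Degrader were 0.00, -0.18 and 0.08. No member had a gene of the integrated stress response list as nearest named row. For comparison, 10.1% of all members and 15.3% of all rows were called under Degrader.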

How the data were processed

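Nascent RNA was measured by PRO-seq in 6 T47D libraries. Whole-number counts per annotated row were deposited by the authors with no normalization. The submitters' processing notes name cutadapt 1.14, Bowtie 1.2.2, SAMtools 1.3.1, HISAT2 2.2.1 and limma, and the builds dm3, hg38 and GRCh38. The role of each build, the counting strand and any spike-in scaling are not given in the sources used here, so levels are relative to each library's total.

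All 20333 rows entered edgeR 4.0.16 (R 4.3.3) after filterByExpr (minimum count 10, total 15), with TMM factors of 0.997 to 1.003, 1 term per arm and 3 residual degrees of freedom. The quasi-likelihood test was used, p-values were Benjamini-Hochberg adjusted over 19902 rows, and a call is an adjusted p under 0.05. The biological coefficient of variation was 5.51%. The log2 ratio of a row to its nearest named row (log2 CPM, prior count 2) was tested with limma 3.58.1. Per-library medians used log2 of CPM plus 0.5. The fits were tested on simulated data.

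Members and gene lists were chosen with earlier results of these data known. Members named are the 8 highest and 8 lowest called under Degrader, the 5 and 5 under GDC0068, up to 5 and 5 between the agents (each with separated arms and at least 1 CPM on average), those with the highest counts and CPM per kb, and leading pairs and classes. AC144652.1, AC142472.1, AC072022.2, AC008115.3, AC087752.3, the coding-gene equivalents and the FOXO-list members were named after their values were seen. The series describes 2 independent experiments. Same-numbered deviations correlated at 0.18 (DMSO and GDC0068), 0.22 (DMSO and Degrader) and 0.20 (GDC0068 and Degrader). Replicate numbers were therefore taken as pairing the libraries in the fits with the replicate block. The other fits had no such term, so p-values given without mention of the block ignore this pairing. Alternatives were DESeq2 1.42.0, RLE factors, no filter, the replicate block, a robust spread, 4 libraries, a minimum of 200 counts, no same-strand overlap, other neighbour rules and each library left out. Leaving out members equal to a RefSeq coding gene or pseudogene was added after seeing the data.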

Additional observations from a re-analysis of the deposited data

How the results depend on the processing

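With the replicate number as a block the members called were 699 for Degrader against DMSO, 460 for GDC0068 against DMSO and 277 between the agents, and the pairs called against the nearest named row were 203 under Degrader and 12 under GDC0068. All 330, 85 and 6 member calls and all 86 pair calls made without the block were among them with the same sign. Leaving out 1 library at a time gave 90 to 348 members under Degrader, 3 to 68 under GDC0068 and 0 to 12 between the agents, and 0 to 68 pairs under Degrader. Between the agents the count was 0 without GDC0068 replicate 1 or Degrader replicate 2, 12 without GDC0068 replicate 2, 13 with a robust spread, 1 with only the 4 libraries compared and 23 with DESeq2. Pairs without overlap gave 2 calls under GDC0068. By nearest start site antisense overlaps numbered 229 in place of 622 and same-strand upstream members 148 in place of 94, and with windows of 2000 and 5000 bp those on the opposite strand without overlap numbered 105 in place of 195. DESeq2 called 224 members under Degrader and 67 under GDC0068. The causes of these differences were not tested. Of the named calls, 18 of 35 under Degrader, 2 of 21 under GDC0068 and 0 of 6 between the agents were made in all 6 fits that leave out 1 library. With 2 libraries per arm and 3 residual degrees of freedom, members of 50 to 200 counts were called in 4.77% under Degrader against 25.8% at 1000 or more, so an interval that was not called cannot be taken as level.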
